A study of Mus musculus with 2 samples.

Results

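The genes described here make or regulate the lipids of sebum, the oily secretion of the sebaceous glands that open into hair follicles. They were chosen by name as a set of 10. The set holds the desaturase genes Scd1 and Scd3, the elongase gene Elovl3, the fatty alcohol gene Far2 and the hormone receptor gene Mc5r. It also holds the acyltransferase genes Awat1, Awat2, Dgat2, Dgat2l6 and Soat1. Of the 10, 9 had a probe that the platform annotation assigns to them alone, 1 probe each. These 9 are among 22180 genes measured in mouse skin. No probe was listed for Soat1, the gene of an enzyme that esterifies cholesterol, and it was not analysed here.

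Dorsal skin of NC/Nga females, from an inbred strain that readily develops dermatitis, was compared on Affymetrix arrays with and without recombinant ZAG (zinc-alpha-2-glycoprotein). Mice of the ZAG group had dermatitis induced over 6 weeks with an ointment of house dust mite (Dermatophagoides farinae) body extract and received topical ZAG for 6 weeks, at 1 µg/mL by the design text. Control mice had the same mite-induced dermatitis without ZAG, and whether they received a vehicle is not stated. Mice entered at 6 weeks of age and were 13 weeks old at sampling. The design text counts 3 mice per group, while the values used here are 1 array per group, and whether an array holds 1 mouse or a pool is not stated. No difference below therefore carries a replicate error or a test, and each one describes these 2 arrays. Whole skin was measured, so a different number of gland cells and a different amount of RNA per cell cannot be told apart.

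Sebocytes fill with lipid droplets and burst to release them. Their lipid is rich in wax esters, in which a fatty alcohol is joined to a fatty acid, and in triglycerides and cholesterol esters. Desaturases and elongases shape the acyl chains, acyl-CoA reductases turn some of them into alcohols, and acyltransferases join the parts. Mice that lack Scd1 have atrophied sebaceous glands and lose hair, and mice that lack Mc5r make less sebum and shed water poorly from the coat.

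Promoter windows of 4 of the genes are shown. Scd3 had the highest difference between the arrays, Dgat2l6 and Awat1 are neighbours on chromosome X, and Far2 makes the alcohols for wax. The windows are the 250 bases before the annotated start, from RefSeq on build GRCm38.p6, plus strand: chr19:44203038-44203287 for Scd3, chrX:100524588-100524837 for Dgat2l6, chrX:100571997-100572246 for Awat1 and chr6:148047166-148047415 for Far2. Capitals mark any match, on either strand, to 6 motifs.
Scd3: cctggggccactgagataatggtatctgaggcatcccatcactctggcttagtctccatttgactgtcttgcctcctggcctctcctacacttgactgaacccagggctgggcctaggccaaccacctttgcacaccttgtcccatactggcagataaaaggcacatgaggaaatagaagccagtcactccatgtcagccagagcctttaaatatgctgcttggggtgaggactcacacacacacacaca
Dgat2l6: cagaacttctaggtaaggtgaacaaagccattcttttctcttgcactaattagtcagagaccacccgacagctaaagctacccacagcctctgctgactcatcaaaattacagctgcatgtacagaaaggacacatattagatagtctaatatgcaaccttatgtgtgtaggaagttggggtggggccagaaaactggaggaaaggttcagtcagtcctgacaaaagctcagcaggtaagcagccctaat
Awat1: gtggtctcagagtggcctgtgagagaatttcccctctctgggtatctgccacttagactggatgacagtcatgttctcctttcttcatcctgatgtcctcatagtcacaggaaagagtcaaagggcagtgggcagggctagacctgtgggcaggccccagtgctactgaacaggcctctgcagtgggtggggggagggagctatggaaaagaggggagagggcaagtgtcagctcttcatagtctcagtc
Far2: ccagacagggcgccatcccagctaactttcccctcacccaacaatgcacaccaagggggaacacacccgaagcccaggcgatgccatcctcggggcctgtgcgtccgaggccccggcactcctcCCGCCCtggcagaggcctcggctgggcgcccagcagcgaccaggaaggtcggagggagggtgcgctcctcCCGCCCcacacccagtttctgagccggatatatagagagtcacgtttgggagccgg

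The motifs searched were the TATA box TATAAA, the CCAAT box CCAAT, the GC box GGGCGG, the E-box CACGTG, the nuclear receptor half-site AGGTCA and the sterol regulatory element TCACNCCAC. The search covered windows of 5 genes of the set, and Mc5r on chromosome 18 was left out of it. The windows of Scd3, Dgat2l6 and Awat1 held none of the 6 motifs. The Far2 window held the GC box at 2 places, the first beginning 126 bases and the last 56 bases before the start, as its capitals show. Both annotated starts of Awat2 had a CCAAT box, beginning 121 bases before the start in one window and 85 bases in the other, and the first of these windows also held a GC box. Among the 32851 windows of this length in the table, 12.4% held the TATA box, 33.8% the CCAAT box, 32.7% the GC box, 6.02% the E-box, 14.0% the half-site and 1.05% the sterol element. A match describes letters only.

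With ZAG, 8 of the 9 measured genes had a higher value than in control skin and 1, Scd1, had a lower one. The median log2 difference, ZAG minus control, was 0.21, against 0.02 over the 13593 genes at or above a background gauge of 3.16, of which 52.4% were higher. The gauge is the 95th percentile of the mean log2 levels of 1390 olfactory and vomeronasal receptor genes, which are used mainly in sensory neurons of the nose. All 9 genes were above it on both arrays, and Awat2 lay closest, 0.98 above it in control skin. At a threshold of 0.32 on the log2 scale (5 over 4 in fold), 4 of the 9 genes were higher with ZAG, where 12.9% of genes above the gauge were. None of the 9 was lower by that threshold, where 14.2% of genes were, and none differed 2-fold in either direction, where 1.27% did. Between probes of 1 gene, in the 800 genes above the gauge with several probes, the difference had an SD of 0.25. This SD gives a scale for probe error only and does not cover differences between mice.

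**Figure D1:**
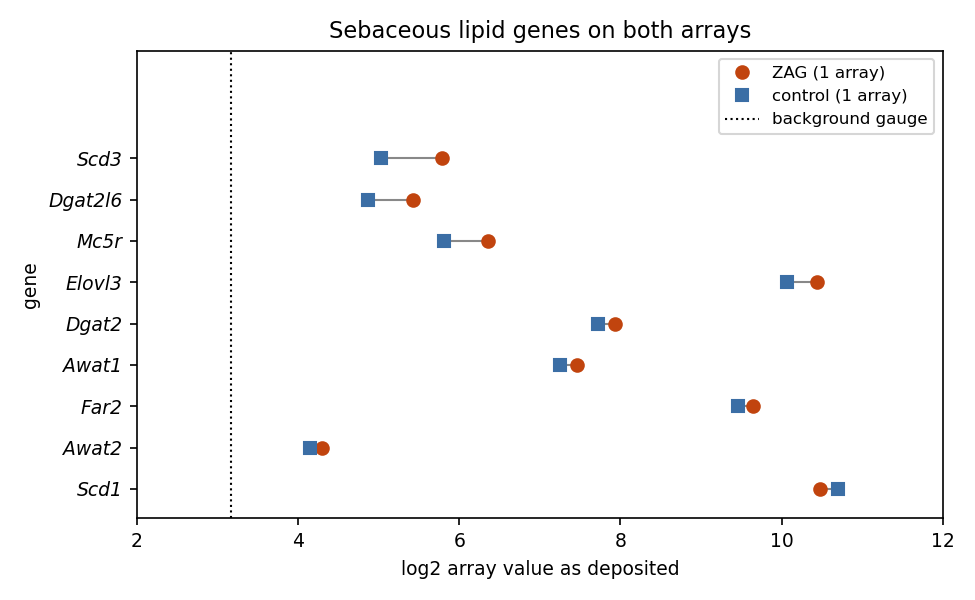
Log2 array value (x axis) of each measured sebaceous lipid gene (y axis) in the ZAG array (circles) and the control array (squares), with the background gauge of 3.16 as a dotted line. The circle lies right of the square in 8 genes and left of it in Scd1. Values of different genes come from different probes and are not comparable with each other.

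The desaturases, which put a double bond into saturated acyl chains, differed in direction. Scd3, a desaturase gene of sebocytes in mouse skin, had a log2 value of 5.78 in the ZAG array and 5.03 in the control array. It was 1.68-fold higher with ZAG, a log2 difference of 0.75 that exceeded those of 99.0% of genes above the gauge. Scd1, the main desaturase gene of skin, which fat cells use as well, had 10.47 in the ZAG array and 10.70 in the control array. Its log2 difference of -0.23 was 1.17-fold lower with ZAG, within the SD between probes of 1 gene. After removal of the trend of the difference with level by loess, the difference of Scd1 was -0.33, past the threshold of 0.32. Scd4, a further gene of the family, was below the gauge on both arrays (2.45 with ZAG and 2.28 in control), so no fold is given. A probe assigned to both Scd2 and the microRNA gene Mir5114 had 8.96 with ZAG and 9.32 in control and could not be given to either gene. The Scd genes are closely related in sequence, and whether their probes tell them apart was not tested.

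Elovl3 lengthens fatty acyl chains in sebaceous glands and in brown fat. It had a log2 value of 10.44 in the ZAG array and 10.06 in the control array. The difference of 0.37 was 1.30-fold higher with ZAG, but 0.30 after quantile normalization and 0.27 after loess, both short of 0.32. Of the 7 elongase genes measured, 2 were higher and 5 lower, where 51.8% of all genes measured were higher. Their median log2 difference was -0.06. Elovl4, which makes the very long chains of barrier ceramides, had 10.46 with ZAG and 10.30 in control. Elovl1 had a log2 difference of -0.27 and Elovl7 one of -0.07. Elovl5, of the polyunsaturated series, differed by -0.03 and Elovl6, which extends palmitate, by -0.06. Elovl2 was below the gauge with ZAG (3.10, against 3.40 in control). As deposited, Elovl3 was the elongase gene with the highest log2 difference and the only one of the 7 past 0.32 in either direction. Of all genes above the gauge, 12.9% were higher and 14.2% lower by that threshold.

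The wax ester genes were all higher with ZAG by less than the SD between probes of 1 gene. Far2, the gene of a reductase that makes fatty alcohols, had log2 values of 9.65 in the ZAG array and 9.46 in the control array, a difference of 0.19, or 0.10 after loess. Awat1, whose enzyme joins fatty alcohols to acyl chains, had 7.46 in the ZAG array and 7.25 in the control array, a difference of 0.21. Awat2, a wax synthase gene whose enzyme also esterifies retinol, had 4.30 in the ZAG array and 4.15 in the control array, a difference of 0.15. In fold terms Far2 was 1.14-fold, Awat1 1.16-fold and Awat2 1.11-fold higher. The related reductase gene Far1, which also serves ether lipid synthesis, differed more than Far2, with 8.36 with ZAG and 7.99 in control.

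Of the other acyltransferase genes, Dgat2l6 had a larger difference than Dgat2. Dgat2l6, a gene of the Dgat2 family, had a log2 value of 5.43 in the ZAG array and 4.86 in the control array. It was 1.48-fold higher, and the log2 difference of 0.57 exceeded those of 97.2% of genes above the gauge. Dgat2, whose enzyme completes triglycerides in sebocytes, fat cells and liver, had 7.93 in the ZAG array and 7.72 in the control array, a difference of 0.21. The monoacylglycerol acyltransferase genes of the family were dim: Mogat1 was below the gauge on both arrays and Mogat2 had 3.17 with ZAG and 3.43 in control. Of all 6 genes of the family, 5 were higher, with a median log2 difference of 0.18, where 51.8% of all genes measured were higher. As 4 of the 6 are genes of the set itself, this count largely repeats theirs. Dgat1, an unrelated gene with the same reaction, had 6.00 with ZAG and 5.81 in control.

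Mc5r encodes the melanocortin receptor of exocrine glands, through which melanocortin peptides raise sebum output in mice. It had a log2 value of 6.36 in the ZAG array and 5.81 in the control array. It was 1.46-fold higher, with a log2 difference of 0.54 that exceeded those of 96.8% of genes above the gauge. Mc1r, the receptor gene of pigment cells, had 4.09 with ZAG and 4.19 in control. The accessory protein gene Mrap, which is also active in fat, had 5.51 with ZAG and 5.40 in control. The other receptor genes, Mc2r, Mc3r and Mc4r, and the accessory gene Mrap2 were below the gauge on both arrays. Mc5r was the only one with a difference past 0.32 among the 3 of these 7 genes above the gauge. Of all genes above the gauge, 12.9% were higher and 14.2% lower by that threshold, so this count of 3 does not set Mc5r apart.

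**Figure D2:**
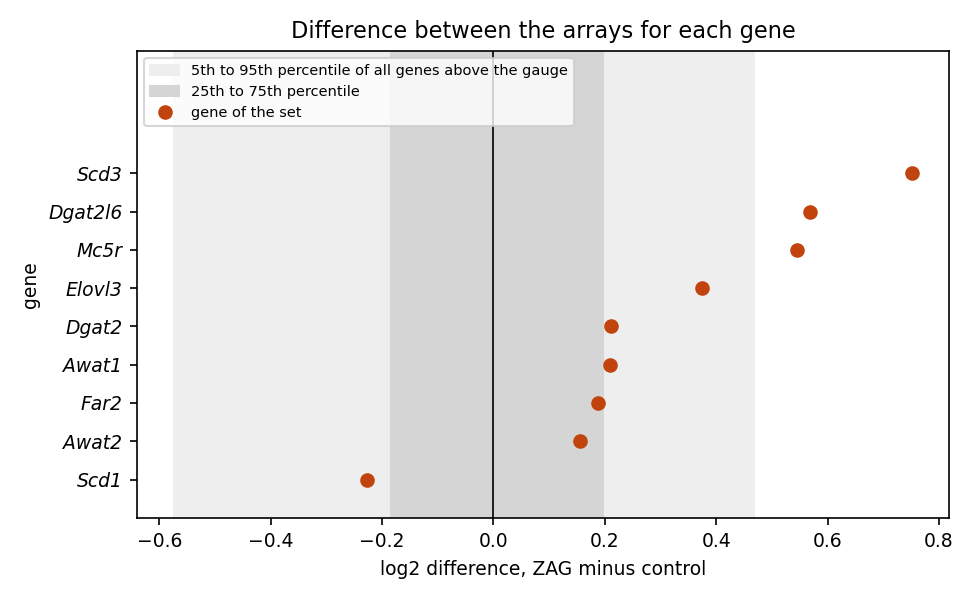
Log2 difference, ZAG minus control (x axis), of each measured gene (y axis), over bands for the 5th to 95th and 25th to 75th percentiles of the 13593 genes above the gauge. Scd3, Dgat2l6 and Mc5r lie right of the outer band, which ends at 0.47, and Scd1 is the gene left of 0.

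Several of the genes lie side by side. In the order of RefSeq's gene table, Awat2, Dgat2l6 and Awat1 fall in a stretch of chromosome X with 2 protein-coding genes, Otud6a and Igbp1, among them. All 9 genes of this stretch, counting 2 more on each side, had higher values with ZAG, as 51.8% of all genes measured did. The 9 include Awat2, Dgat2l6 and Awat1 themselves, Tmem28 and Arr3 were below the gauge on both arrays, and Otud6a was below it in control skin. Eda, which encodes a ligand that skin appendages need to form, lies next to Awat2 and was 0.63 higher (4.76 with ZAG and 4.13 in control). Igbp1, a broadly used gene between Awat2 and Dgat2l6, was 0.22 higher, against 0.21 for Awat1. The desaturase genes Scd3 and Scd1 are separated by Scd2 and Scd4 on chromosome 19 and differed in opposite directions. The genes directly beside Elovl3, Nolc1 and Pitx3, had log2 differences of -0.17 each. On the other chromosomes, Uvrag (-0.07) and Mogat2 (-0.26) flank Dgat2, and Ccdc91 (0.09) and Ergic2 (-0.03) flank Far2. Rnmt, next to Mc5r, was 0.35 higher.

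**Figure D3:**
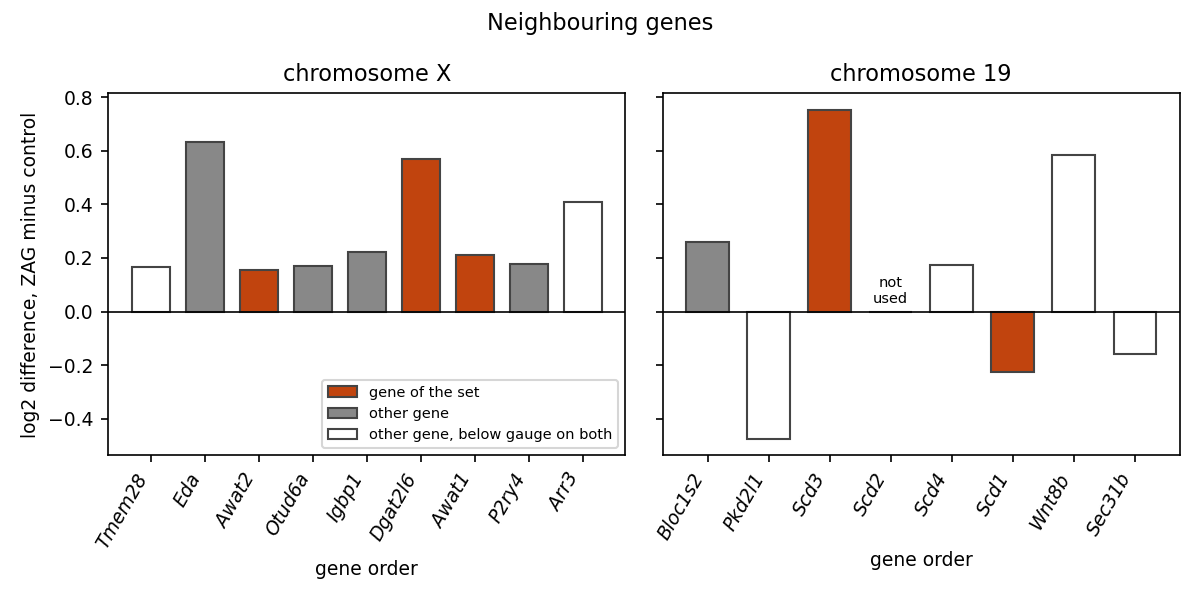
Log2 difference, ZAG minus control (y axis), for genes in chromosome order (x axis) around the Awat genes on chromosome X and the Scd genes on chromosome 19. Bars are red for the sebaceous lipid genes, grey for other genes and white for other genes below the gauge on both arrays. No bar is drawn for Scd2, which has no probe of its own. All 9 bars on chromosome X point up, while Scd3 and Scd1 point in opposite directions.

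Other genes known in sebocytes were higher more often than lower, with a smaller median. Of 36 measured genes among 38 listed, 22 were higher and 14 lower, with a median log2 difference of 0.10. Of the 34 above the gauge, 9 were higher by at least 0.32, beside 12.9% of all genes above the gauge, and 2 were lower by at least 0.32, beside 14.2%. At any size, 52.4% of all genes above the gauge were higher. Defb6, a beta-defensin gene, had 10.60 with ZAG and 9.85 in control, and Mgst1, the gene of a microsomal glutathione transferase abundant in sebocytes, had 6.84 with ZAG and 6.38 in control. Gata6, a transcription factor gene of the sebaceous duct, had 3.75 with ZAG and was below the gauge in control skin (3.13). Pparg, whose nuclear receptor drives both sebocyte and fat cell differentiation, was 0.43 higher, and Krt79, a keratin gene of the duct and upper follicle, was 0.21 higher. The lipid droplet coat gene Plin2 was 0.37 higher. Prdm1 (-0.19), Acsbg1 (-0.13) and Lrig1 (-0.12) were among the 14 lower genes of this list. In the other direction, the fatty acid binding protein gene Fabp5 had 8.97 with ZAG and 9.46 in control, and the citrate lyase gene Acly had 8.26 with ZAG and 8.61 in control.

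Genes that supply and activate fatty acids were divided in direction. Of 19 measured, 9 were higher and 10 lower, near the 52.4% higher over all genes above the gauge, with a median log2 difference of 0.00. Of these 19, 9 also stand in the list of other sebaceous genes, and the difference between the lists was not tested. The malic enzyme gene Me1 (0.42), the glycerol phosphate acyltransferase gene Gpam (0.36) and the acyl-CoA synthetase gene Acsl5 (0.32) were highest. Besides Acly, the transporter gene Slc27a3 (-0.23) and the acyltransferase gene Gpat3 (-0.20) were lowest. Fasn, the gene of fatty acid synthase, had 8.50 with ZAG and 8.63 in control. Srebf1, the gene of the main transcription factor of fatty acid synthesis, had 5.19 with ZAG and 5.33 in control. Insig1, a sterol-responsive gene of the other sebaceous list, was 0.45 higher. Targets of SREBP factors were not counted as a set.

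Markers of other skin structures differed as well, where 51.8% of all genes measured were higher with ZAG. Hair shaft and root sheath markers were higher in 23 of 23 measured genes, with a median log2 difference of 0.51, and their summed linear signal was 18471 in the ZAG array and 12649 in the control array, a ratio of 1.46. Fat cell markers were higher in 15 of 17, with a median of 0.42 and summed signals of 5051 with ZAG and 3668 in control (1.38). The fat cell hormone gene Adipoq had 6.53 with ZAG and 6.12 in control, above the gauge on both arrays. Lipe (-0.13) and Pnpla2 (-0.15) were the 2 lower fat cell markers. Skeletal muscle markers were higher in 13 of 16, with a median of 0.56 and summed signals of 3337 with ZAG and 2348 in control (1.42). The myosin genes of this list differed in opposite directions, with Myh4 at 1.59, Myh2 at -1.69 and Myh1 at -0.92. The 9 sebaceous lipid genes summed to 4230 with ZAG and 3936 in control (1.07), a sum set mostly by the bright probes of Scd1, Elovl3 and Far2. Scd1 and Dgat2 are used by fat cells too: Dgat2 was 0.21 higher and Scd1 had a difference of -0.23.

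Markers of activated keratinocytes, immune cells and dermis were mostly lower, and those of resting epidermis were mixed. Over all genes measured, 51.8% were higher with ZAG. Interfollicular keratinocyte markers were higher in 4 and lower in 7 of 11 (median -0.16, summed signals of 12952 with ZAG and 14320 in control). At the threshold of 0.32, 3 of the 11 were higher (Ivl at 0.65, Krt77 at 0.45 and Dsg1a at 0.35), beside 12.9% of genes above the gauge. Lower by that threshold were 2 of the 11 (Krt14 at -0.73 and Col17a1 at -0.48), beside 14.2% of genes above the gauge. Keratinocyte activation markers were lower in 11 of 12 (median -1.44, 6748 with ZAG and 16339 in control). Immune cell markers were lower in 12 of 15 (median -0.58, 784 with ZAG and 1461 in control), and 3 of the 15 had mean levels below the gauge. S100a8, with 7.84 with ZAG and 9.23 in control, stands in both the immune and the activation list, so these lists are not separate. Fibroblast and vessel markers were lower in 10 of 12 (median -0.48, 7207 with ZAG and 9021 in control). The part of these shifts in the differences of the sebaceous genes was not tested. With 1 array per group, the treatment and the piece of skin sampled cannot be told apart.

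**Figure D4:**
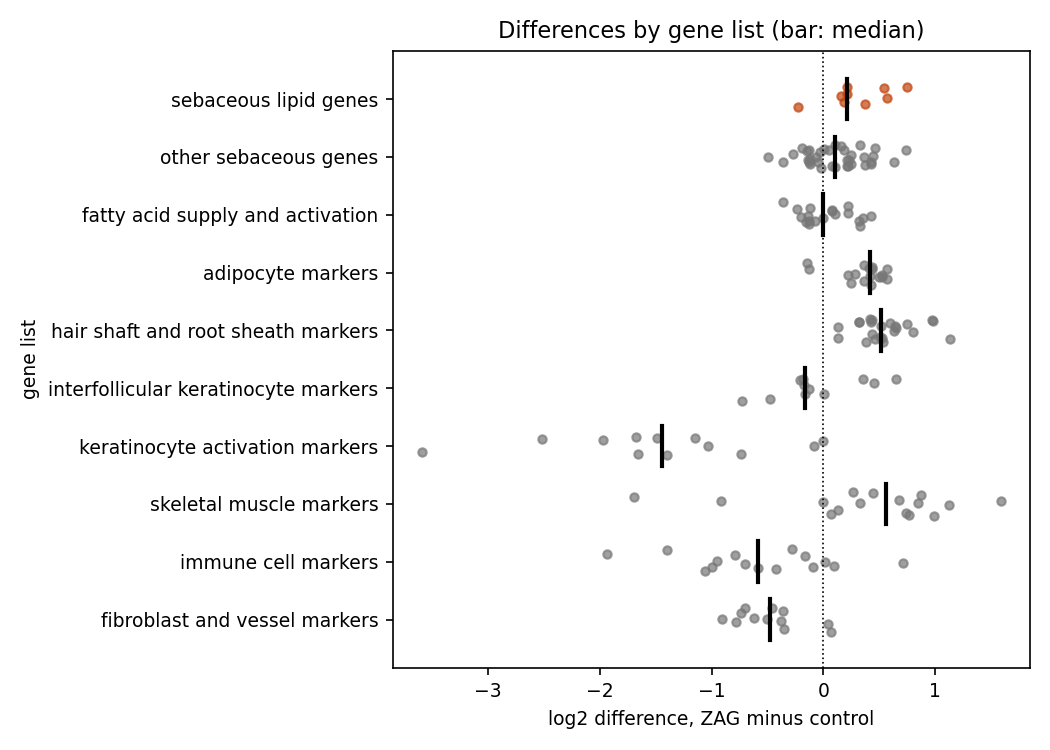
Log2 difference, ZAG minus control (x axis), of each measured gene in the lists named on the y axis, with a black bar at each median. The sebaceous lipid genes (red) have a median of 0.21, between those of the fatty acid supply list (0.00) and of the fat cell (0.42) and hair (0.51) marker lists.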

How the data were processed

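The authors deposited 1 table with 33793 probes and 1 column per group. Its values read as log2 (0.87 to 13.19 in the ZAG column and 0.89 to 12.75 in the control column), a scale inferred from the numbers. The deposited log2 values were made by the authors from arrays of fragmented, biotin-labelled sense cDNA, per the labels' protocols, and how they were background corrected, normalized and summarised is not stated. Columns were used as deposited (medians 3.36 with ZAG and 3.33 in control). Depth does not apply, and the number of arrays limits the precision.

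Groups came from the treatment label. The 23521 probes with 1 gene symbol in the platform annotation were used (1814 had several and 8458 none), and probes of 1 gene were averaged. Differences are ZAG minus control. A fold is given only where at least 1 array was at or above the gauge, as "at least" where the other was below it. No test was run. The genes, lists and thresholds were chosen with earlier results of these data known. Named genes are all 10 of the set, all genes of their small families and, per list, up to 3 genes with the highest and the lowest difference above the gauge. Pparg, Krt79, Plin2, Prdm1, Acsbg1, Lrig1, Fasn, Srebf1, Adipoq, Insig1 and the neighbouring genes were named outside this rule. The gene table was checked by adding a known shift to the control values of randomly picked genes, which it gave back. Alternatives were median centring, quantile normalization, loess (span 0.3), the brightest probe per gene, filters at the gauge and at the median level, and adding probes with several symbols. Software was pandas 2.3.3, numpy 2.4.6 and statsmodels 0.14.6 in Python 3.11.15, with figures from matplotlib 3.10.9.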

Additional observations from a re-analysis of the deposited data

How the results depend on the processing

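The 7 alternatives gave 63 values for the 9 genes, and none had another sign than the value as deposited. Only median centring, quantile normalization and loess could change these values. Each gene had 1 probe, passed both level filters and is listed on no probe with several symbols. The other alternatives therefore repeat the deposited values of the 9 genes. The largest shift was 0.11. Scd3 ranged from 0.73 to 0.76, Mc5r from 0.52 to 0.56, Dgat2l6 from 0.54 to 0.57 and Elovl3 from 0.27 to 0.37. Far2 ranged from 0.10 to 0.19 and Scd1 from -0.33 to -0.23. The median of the 9 genes ranged from 0.17 to 0.21. The count higher by at least 0.32 was 4, or 3 after quantile normalization and after loess, where Elovl3 dropped out. The median of the other sebaceous genes ranged from 0.05 to 0.13. The near-zero median of the fatty acid supply list was 0.02 with the brightest probe and 0.04 with probes of several symbols added, and that of the desaturase family turned to -0.03 when the probe shared with Mir5114 was added. No paired analysis was possible because each group has 1 array.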
